A study of Mus musculus with 2 samples.

Results

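miR-221 and miR-222, listed in the files as mmu-miR-221 and mmu-miR-222, were followed in 2 regions of the mouse embryo at E13.5. The first is the 3rd mammary gland, called the gland hereafter, and the second is the inter mammary gland region, called the inter-gland region. Both miRNAs were chosen by name and not by a cut on a measured value, but with earlier results of these data known. They are 2 of the 696 miRNAs on the array. The study profiled untreated ICR embryos to find miRNAs of the forming gland, with the inter-gland region for comparison. Total RNA of each region, 100 ng, was Cy3-labelled and put on 1 Agilent miRNA microarray, with both arrays on 1 slide. Each region is a whole dissected tissue of mixed cells, and the labels do not say how many embryos were pooled. With 1 array per region no difference below has a replicate check and no test was run, and every SD or standard error over spots is technical only.

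miR-221 and miR-222 are made from neighbouring hairpins that are transcribed together, and their mature strands begin with the same seed, the stretch that pairs with target mRNAs. Known targets of both include Cdkn1b, an inhibitor of cell cycle kinases, and Kit, a receptor of stem, blood and endothelial cells. In breast cancer they are known from basal-like cells, where they repress the estrogen receptor gene Esr1 and the transcription factor gene Trps1. They are also well known from the vessel wall, where they act in endothelial and smooth muscle cells.

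The mature strands are shown to let the shared and the differing bases be compared, with the seed, bases 2 to 8, in capitals. Sequences are from RefSeq (GRCm38.p6). The array names carry no arm, and the 3p strand, the usual guide, is shown for each.
mmu-miR-221-3p: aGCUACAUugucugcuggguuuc
mmu-miR-222-3p: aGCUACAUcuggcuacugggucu
mmu-miR-1928: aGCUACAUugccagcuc
Both members are 23 bases long and lie on the minus strand of chromosome X, miR-221-3p at chrX:19146307-19146329 and miR-222-3p at chrX:19146901-19146923. Their first 8 bases are identical, and 3 of the 15 bases after them when compared position by position with no gap. Stretches that are alike but shifted between the strands are not counted. Among 1738 mature mouse miRNAs in the table, 3 carried this seed, the pair and miR-1928, and all of them are on the array. miR-1928 comes from another chromosome (chr1:74206562-74206578, minus strand) and shares its first 10 bases with miR-221-3p. The bases that each array probe reads are not given in the files used here.

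The hairpins are shown with the 3p strand in capitals, to place each mature strand in its precursor.
Mir221: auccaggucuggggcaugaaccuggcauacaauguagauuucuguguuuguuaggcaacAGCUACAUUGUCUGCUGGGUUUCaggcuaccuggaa
Mir222: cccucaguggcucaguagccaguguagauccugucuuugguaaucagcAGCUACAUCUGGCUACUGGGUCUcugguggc
Mir221 lies at chrX:19146294-19146388 and Mir222 at chrX:19146893-19146971, with 504 bases between them. The array holds 0 probes named for the passenger strands miR-221* and miR-222*.

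miR-221 was detected in both regions and its signal was lower in the gland than in the inter-gland region, by 1.30-fold after scaling. It was read by 2 probes printed as 10 spots each. Detection here means that more than 50% of the spots of a probe were well above background by the scanner software. For miR-221 all 20 spots met this on each array. On the first probe (A_54_P2640) the background-subtracted signal in the gland ran from 95.7 over a median of 106 to 119, with a mean of 107 ± 7.07 (SD over 10 spots). In the inter-gland region the same probe ran from 115 over a median of 126 to 131, with a mean of 125 ± 5.41 (SD over 10 spots). The ranges of the arrays overlapped on this probe before scaling. On the second probe (A_54_P3830) the signal in the gland ran from 130 over a median of 151 to 157, with a mean of 149 ± 8.49 (SD over 10 spots). In the inter-gland region it ran from 162 over a median of 177 to 196, with a mean of 179 ± 9.72 (SD over 10 spots). Here the dimmest spot of the inter-gland region was brighter than the brightest spot of the gland, even before scaling.

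**Figure D1:**
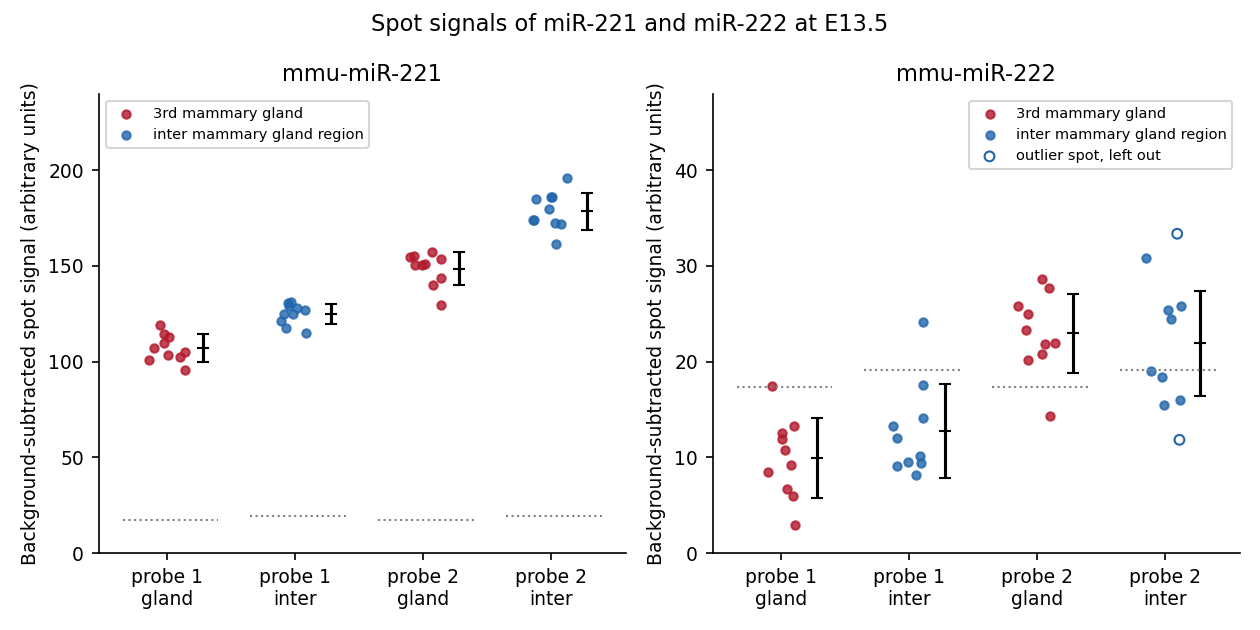
Each point is 1 spot, with its background-subtracted signal in arbitrary units on the y axis and the probe and region on the x axis. The black bars give the mean ± SD over the spots kept, the dotted lines the brightest negative control spot of that array, and open circles the outlier spots left out. All miR-221 spots lie far above the dotted lines, while those of miR-222 lie on both sides of them, with 10 of 20 above in the gland and 5 of 18 in the inter-gland region.

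Every spot of a probe has the same place on both arrays, so the arrays can be compared place by place. At 20 of 20 places the miR-221 spot was dimmer in the gland before scaling. The scaling lowers the gland further, so this count could not change after it. Scaling divided each array by a 75th percentile, taken over the 555 probes that both arrays detected, which was 1.09 times as high for the gland. Brought to the scale of the other array, the spots of the gland ran from 87.4 to 109 on the first probe and from 118 to 144 on the second, so that neither probe overlapped between the regions. The spots are technical repeats, and the share of all 555 probes that separate in this way is not given here.

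On the scaled signals the log2 ratio of miR-221, gland over inter-gland region, was -0.38 with a standard error over spots of 0.026, a ratio of 0.770. The first probe alone gave -0.35 and the second -0.40. Their gap of 0.043 on the log2 scale was smaller than the median gap of 0.083 over 244 miRNAs for which both arrays detected more than 1 probe. The 90th percentile of that gap was 0.25. A difference between the arrays that both probes share, such as the scaling, cancels in the gap. The gap therefore does not gauge the size of the miR-221 ratio. How far dissections or embryos differ is not measured by it either.

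miR-222 was not detected in either region by the same rule. Quotients of its signals are given as descriptions of dim spots and are no measured fold. Its 2 probes were again printed as 10 spots apiece. Of these, in the gland 0 of 20 spots were well above background, and in the inter-gland region 1 of 18, with 2 outlier spots left out. On the first probe (A_54_P2643) the signal in the gland ran from 2.93 over a median of 9.99 to 17.4, with a mean of 9.93 ± 4.17 (SD over 10 spots). In the inter-gland region this probe ran from 8.20 over a median of 11.1 to 24.1, with a mean of 12.7 ± 4.90 (SD over 10 spots). The ranges of the arrays overlapped. On the second probe (A_54_P2644) the signal in the gland ran from 14.3 over a median of 22.6 to 28.6, with a mean of 22.9 ± 4.17 (SD over 10 spots). In the inter-gland region it ran from 15.4 over a median of 21.7 to 30.8, with a mean of 21.9 ± 5.47 (SD over 8 spots). On this probe too the ranges of the arrays overlapped.

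The signal of miR-222 lay partly within and partly above the range of the negative control spots. The negative control spots averaged 3.81 ± 5.28 (SD, n = 432 spots) in the gland, where the brightest was at 17.3. In the inter-gland region they averaged 2.23 ± 5.07 (SD, n = 428 spots), with the brightest at 19.2. Of the miR-222 spots, 10 of 20 in the gland and 5 of 18 in the inter-gland region were brighter than every negative control spot of their array. A looser flag of the software, a signal above 0 that is significant against the local background, was set for 19 of 20 and 18 of 18 spots. miR-1928, the other miRNA with this seed, gave 0 of 19 and 0 of 20 spots brighter than every negative control spot, and its probe means lay between -2.15 and 0.13.

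Between the regions, miR-222 showed no common direction over its spots. The spot of the gland was dimmer at 10 of the 18 places measured on both arrays, 7 of 10 on the first probe and 3 of 8 on the second. The scaled log2 ratio was -0.21 with a standard error over spots of 0.13. The first probe alone gave -0.49 and the second -0.063, a gap of 0.43 that is wider than the 90th percentile of 0.25 over miRNAs detected on both arrays. The SD over spots was 18.2% to 42.0% of the mean for the miR-222 probes, against 4.33% to 6.60% for those of miR-221.

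The miR-222 signals also differed with the place on the array, over few spots. In the first 96 of the 192 rows of spots, the mean of the first miR-222 probe was 6.80 in the gland and 9.14 in the inter-gland region (3 spots each). In the other rows it was 11.3 and 14.3 (7 spots each). The mean of the second probe was likewise higher in the other rows on both arrays, going from 20.6 (5 spots) to 25.3 (5 spots) and from 16.8 (3 spots) to 24.96 (5 spots). The mean of the negative control spots went the other way in the gland, from 4.30 to 3.31, and from 1.995 to 2.45 in the inter-gland region. The part of the array position in the miR-222 values was not tested. For miR-221 the log2 ratio was -0.39 over the first 96 rows and -0.36 over the others.

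Dim miRNAs as a whole were slightly brighter on the array of the gland. Over the other 383 miRNAs detected on neither array, the unscaled signal of the gland minus that of the inter-gland region had a median of 1.42, and 77.8% of them were brighter in the gland. For miR-222 the same difference was -0.890, from mean signals of 16.4 and 17.3. A lower difference was seen for 13.8% of the other dim miRNAs. Their median signals were 2.02 in the gland and 0.379 in the inter-gland region, well below those of miR-222. When the mean of the negative control spots was subtracted from each array, a setting added after the data were examined, the log2 ratio of miR-222 was -0.39 and that of miR-221 -0.40.

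The totals that the software gives per miRNA, which the authors deposited, differ from these means for miR-222. For miR-221 the total was 169 (error 13.3) in the gland and 197 (error 15.0) in the inter-gland region, each the sum of both probes. For miR-222 it was 15.2 (error 4.12) and 14.2 (error 3.90), each equal to the total of the second probe alone. The software called both miRNAs detected in both regions. The quotient of the deposited totals, gland over inter-gland region and without scaling, was 0.861 for miR-221 and 1.07 for miR-222. With the first probe included, the miR-222 totals were 21.8 and 22.4 and their quotient was 0.970, on the other side of 1. The reported error of each miR-222 total, 27.1% and 27.5% of its value, was larger than either departure from 1. For miR-221 the errors were 7.85% in the gland and 7.65% in the inter-gland region, each smaller than the departure of 0.861 from 1. Each is the error of a single total and not of the quotient.

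As a pair, both quotients of the scaled means were below 1, and the log2 ratio of miR-222 lay 0.17 above that of miR-221, with a standard error over spots of 0.13. This difference ran from 0.031 to 0.33 over 13 alternatives, and since miR-222 was detected in neither region it describes the dim spots rather than a measured gap between the miRNAs. A common scaling factor cancels in it. The levels of the members cannot be set against each other, since different probes bind with different strength.

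Among all miRNAs detected in both regions, miR-221 lay toward the lower end but within 1.5-fold. The log2 ratios of these 284 miRNAs had a median of 0.048, a 10th percentile of -0.45 and a 90th percentile of 0.36. A lower ratio than that of miR-221 was measured for 39 of them, or 13.7%. At 1.5-fold, 9.15% of the 284 miRNAs were lower in the gland and 2.11% higher. Of the members, 1 was detected in both regions and 0 passed this threshold. The background itself moved with the scaling: of the miRNAs past 1.5-fold, 18.8% were higher in the gland in the main setting and 39.5% with no scaling. The median ratio also shifted, by 0.13 with no scaling and by 0.16 with the 75th percentile of all probes. Relative to the median, miR-221 stood at -0.43 under both of these as in the main setting. A single factor per array shifts all ratios alike, so this distance could not change and is no check. After quantile normalization, which could change it, miR-221 stood at -0.34 and 47 miRNAs had a lower ratio.

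**Figure D2:**
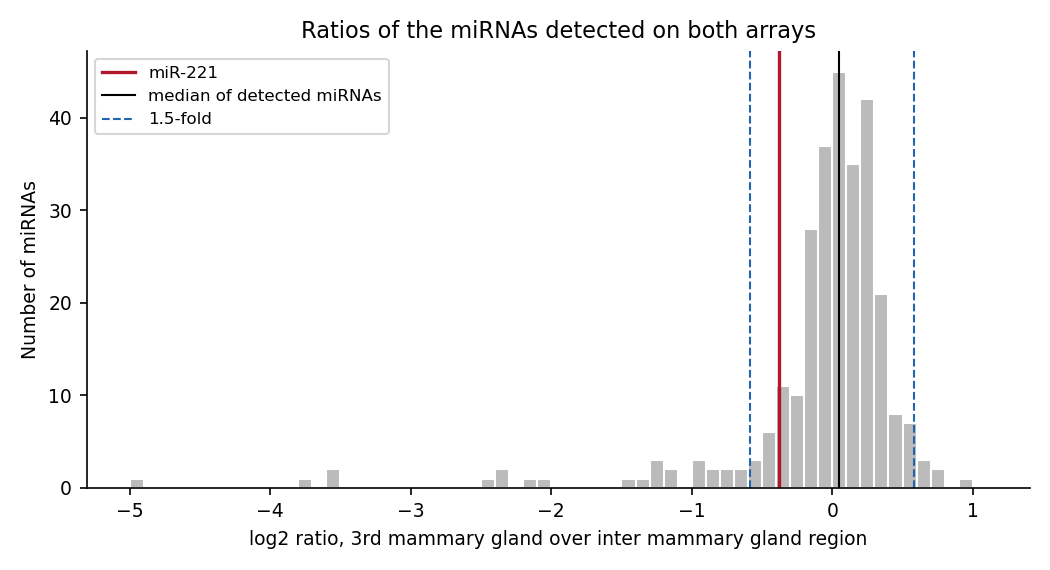
The histogram counts the 284 miRNAs detected on both arrays by their log2 ratio, gland over inter-gland region, in the main setting. The red line at -0.38 is miR-221, left of the median of 0.048 and inside the dashed lines at 1.5-fold.

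The miRNAs with the ratios nearest to miR-221, over only 2 arrays, were miR-1895 at -0.37, miR-532-3p at -0.38 and let-7d at -0.39 on the log2 scale. Their gaps to miR-221 are smaller than its standard error over spots, so their order cannot be told. No neighbours are named for miR-222, which was detected in neither region.

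Marker miRNAs of the cell types that such a dissection can hold give the setting of these values. The marker lists were chosen with earlier results of these data known. In whole tissue, fewer cells of a type and less RNA per cell cannot be told apart. The epithelial miRNAs, the miR-200 family with miR-203 and miR-205, were all detected in both regions, and their log2 ratios had a median of 0.34. miR-200a was at 0.51, miR-429 at 0.40, miR-200b at 0.37, miR-200c at 0.34 and miR-141 at 0.21, while miR-205 was at -0.021 and miR-203, a miRNA of the differentiating epidermis, at -0.31. All 7 lay above miR-221, and in the main setting 0 of them passed 1.5-fold in either direction. This count depends on the scaling. The list median was 0.47 with no scaling and 0.36 after quantile normalization. Of the unscaled quotients of the deposited totals, that of miR-200a alone was past 1.5, at 1.59.

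The vessel miRNAs detected in both regions had ratios above 0. miR-126-3p, made in endothelium, was at 0.046 on the log2 scale, miR-126-5p at 0.21 and miR-143, a miRNA of smooth muscle, at 0.25. miR-145 was detected in neither region. The mesenchymal miRNAs likewise had a median of 0.24, with miR-199a-3p at 0.32, miR-214 at 0.26, miR-199a-5p at 0.22 and miR-199b* at 0.075. Neither list had a member past 1.5-fold in the main setting.

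The striated muscle miRNAs were all lower in the gland. All 4 passed 1.5-fold, with miR-206 at -1.43, miR-133b at -1.26, miR-133a at -1.21 and miR-1 at -1.12 on the log2 scale. miR-221 went the same way as these markers but at -0.38, and the part of muscle in its ratio was not tested. The blood miRNAs were spread around 0, with miR-486 at -0.39, miR-223 at -0.11, miR-144 at 0.15 and miR-451, an erythroid miRNA, at 0.44. Of the neural miRNAs, miR-128 was at -0.57, and miR-9, miR-124 and miR-137 were detected in neither region by the spot rule, although the software called miR-9 and miR-137 detected in the gland. Over the 6 lists, 17 of the 23 markers detected in both regions, or 73.9%, had a higher ratio than miR-221, against 85.9% of all 284 miRNAs.

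**Figure D3:**
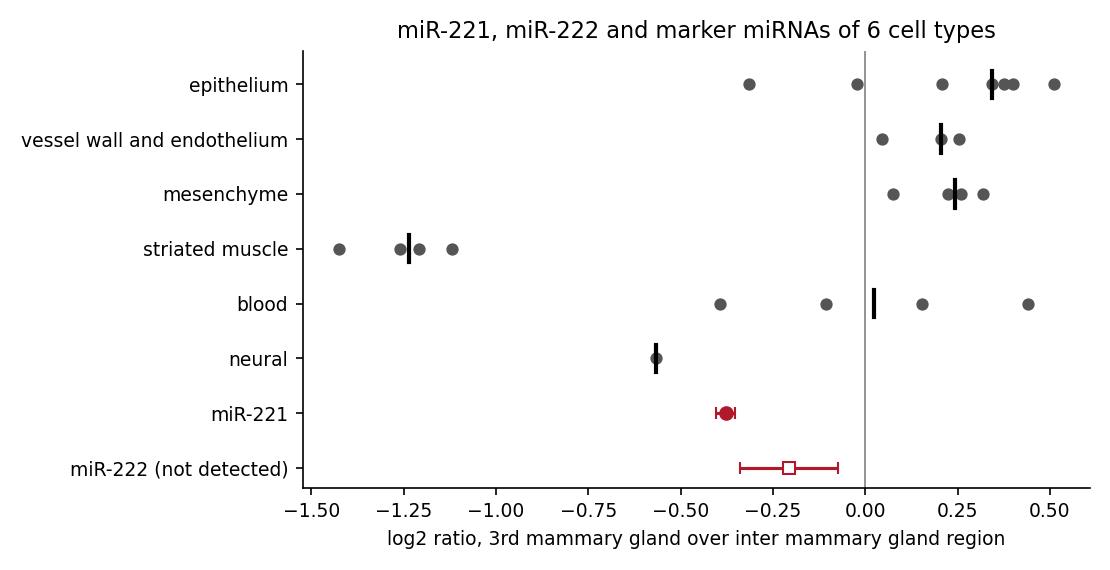
Each grey point is 1 marker miRNA detected in both regions, with its log2 ratio, gland over inter-gland region, on the x axis and its list on the y axis, and the black ticks are list medians. miR-221 (filled red) and miR-222 (open red, not detected in either region) carry the standard error over spots. miR-221 lies between the muscle markers and most of the others.

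The log2 ratio of miR-221 was below 0 under all 17 alternative settings that were run, from -0.44 to -0.17. It passed 1.5-fold under none of them. All reuse the same spots on the same arrays, so 17 is not a count of independent checks. Some could not change the ratio, such as the software call of detection and leaving out the dimmest miRNAs. Other settings gave the same value as each other. The log2 quotient of miR-222 ran from -0.39 to -0.047 over the 16 settings that gave a value. These settings reuse the same dim spots, so their common sign says nothing of its direction, and the unscaled quotient of its deposited totals was above 1.

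**Figure D4:**
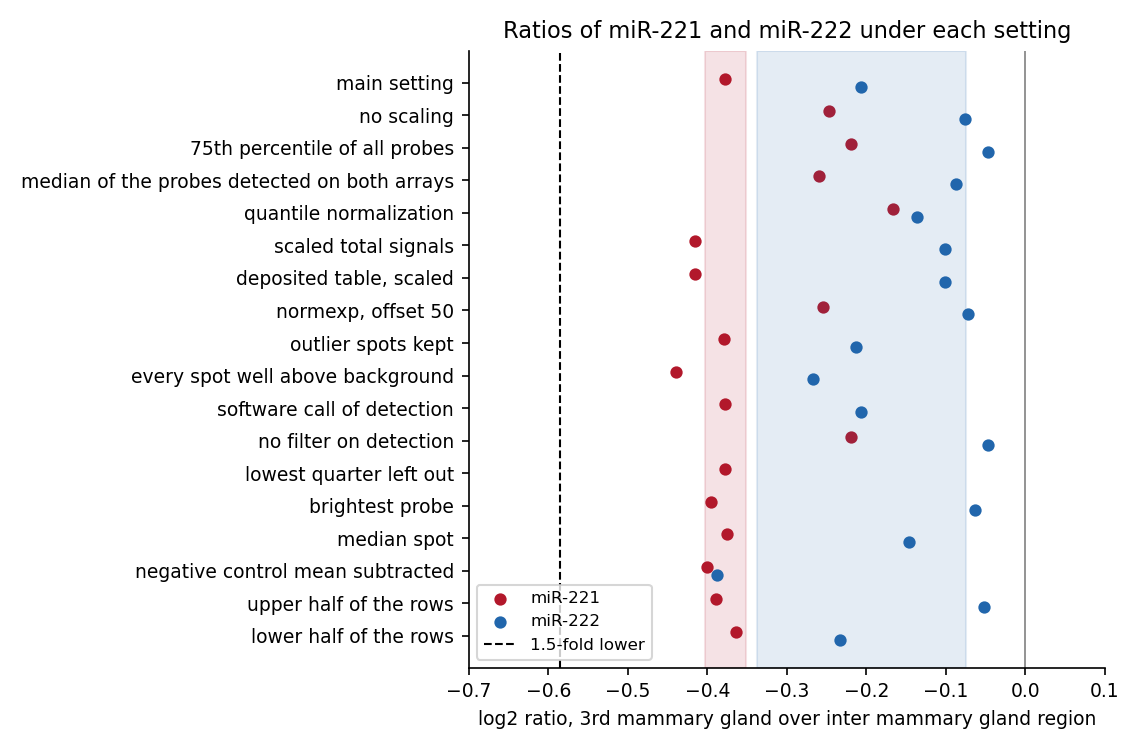
Log2 ratios of miR-221 (red) and miR-222 (blue), gland over inter-gland region, on the x axis for each setting on the y axis. The shaded bands are the main values with their standard error over spots, -0.38 for miR-221 and -0.21 for miR-222. All points lie between 0 and the dashed line at 1.5-fold lower.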

How the data were processed

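The authors scanned the arrays and quantified the spots with Feature Extraction (version 10.7.3.1, per the file headers), and deposited a background-subtracted intensity for each spot on a linear scale, with no normalization between arrays. The deposited table repeats the software's total intensity per miRNA, with 0.1 where it made no call of detection. For normalization the methods name GeneSpring GX.

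Here, control and outlier spots (outliers were 1.67% of the gland array's miRNA spots and 2.51% of the other's) were left out, spots were averaged per probe, each array was divided by its 75th percentile over probes that both arrays detected, and probes were averaged per miRNA. Standard errors were propagated from the SD over spots. The miRNAs named are the members, miRNAs of the same seed, the 3 nearest in ratio to each member (not printed for miR-222, which was not detected), and the marker lists. Members and lists were chosen with earlier results of these data known. The scripts were tested on simulated data, with changes larger than the miR-221 ratio and scored over detected miRNAs. That test covers neither a change as small as that of miR-221 nor an undetected miRNA such as miR-222. normexp was run with offset 50 on the median pixel signal, in place of the mean. Precision is limited by the number of arrays, 1 per region. Python 3.11.15, numpy 2.4.6, pandas 2.3.3, R 4.3.3 and limma 3.58.1 were used.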

Additional observations from a re-analysis of the deposited data

How the results depend on the processing

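No paired analysis was possible because there was a single array for either region. The log2 ratio of miR-221, -0.38, was -0.25 unscaled, -0.22 when all probes gave the 75th percentile or no detection filter was set, -0.26 scaled by the median, -0.17 after quantile normalization, -0.42 from scaled totals (scanner files or deposited table alike), -0.25 after normexp, and -0.44 where detection needed every spot above background. That of miR-222, -0.21, was -0.047 when all probes gave the 75th percentile or no detection filter was set, -0.071 after normexp, -0.063 with the brightest probe, -0.052 over the first 96 rows and -0.39 with the negative control mean subtracted. It has no value with the dimmest miRNAs left out, which starts from detected miRNAs. The difference of 0.17 between them was 0.031 after quantile normalization, 0.31 from either source of totals, and 0.33 with the brightest probe. The other alternatives moved these values by less than the standard error over spots. The 6 miRNAs at least 1.5-fold higher became 15 unscaled or scaled by the median, 19 when all probes gave the 75th percentile, 14 after quantile normalization, 18 from either source of totals, 2 after normexp, 13 with the software call, 127 with no filter and 0 at 2-fold. The 26 lower ones became 38 from either source of totals, 33 with the software call, 18 after normexp, 51 with no filter and 16 at 2-fold. These counts are over unlike sets: 323 miRNAs for the totals and the software call, 504 with no filter, and 284 in the main setting. Having no filter also changed the scaling, to all probes; with the main scaling kept, 99 of 504 miRNAs were higher and 59 lower. The 2-fold count is lower by construction. Against the main setting, every log2 ratio was raised alike, by 0.13 unscaled, by 0.12 scaled by the median and by 0.16 scaled by all probes. For the rest the cause was not tested. The unfiltered count with the main scaling, the negative control subtraction and the split by rows were chosen after the data were examined. Signal over background limits miR-222.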
